A study of Mus musculus with 24 samples.

Results

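The 193 peaks described here are distal ATAC-seq peaks of germinal center (GC) B cells whose accessibility was lower in mice with combined loss of 1 Crebbp and 1 Kmt2d allele, while their mean in mice with either loss alone stayed near WT. They were selected by thresholds on the mean values of 4 genotypes, out of 65483 consensus peaks. ATAC-seq uses a transposase that cuts open DNA, so the fragments counted in a peak measure how accessible that stretch of chromatin was. Splenic GC B cells were sorted 10 days after immunization of mice with sheep red blood cells (SRBC), with 1 mouse and 60000 cells per library. The genotypes were WT (Cγ1 cre/+ alone, 4 mice), C (with Crebbp fl/+, 4 mice), K (with Kmt2d fl/+, 4 mice) and CK (with Crebbp fl/+ and Kmt2d fl/+, 5 mice). All 17 mice carried Cγ1 cre/+, which is driven from the Cγ1 locus in B cells activated to enter the GC, and on the study's description they were mice of 8 weeks on a C57BL/6J background.

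CREBBP is an acetyltransferase that places H3K27 acetylation at active enhancers, and KMT2D is a methyltransferase that places H3K4 monomethylation there. Both genes are recurrently mutated in lymphomas that arise from GC B cells. GC B cells cycle between a dark zone, where they divide and mutate their immunoglobulin genes, and a light zone, where they present antigen to T cells. Many genes of this cycle are controlled by distal enhancers, which are seen as open chromatin away from transcription start sites (TSSs).

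For each peak, counts were scaled to 1000000 counted fragments per library (CPM), and the log2 ratio of each genotype's mean to the WT mean was taken after adding 0.1 CPM to both. A peak was eligible if it lay on an autosome, more than 1 kb from any TSS, and had a WT mean of 3 CPM or more, and 22696 peaks were. A selected peak also had a CK ratio of -0.3 or less and C and K ratios between -0.15 and 0.15. Of the eligible peaks, 3178 reached the CK threshold, beside 11.8% of all 65483 peaks, and the 193 selected peaks were 6.07% of those. At 1548 of the 3178 peaks the K ratio was below the band with C inside it, and at 1194 both C and K were below it. At only 125 of the 3178 was C below the band with K inside it.

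The libraries held 17483706 to 21857738 fragments in peaks. The summed CPM of 5 peaks at Crebbp ranged from 43.9 to 47.0 in WT, 41.4 to 47.0 for C and 49.3 to 52.2 for CK, and that of 4 peaks at Kmt2d from 124 to 127 in WT, 124 to 130 for K and 129 to 135 for CK, and these sums measure accessibility and not the alleles, so they do not check the genotypes. A promoter peak was found for 8 of 8 GC B cell marker genes, among them Bcl6, S1pr2 and Cd79a, against 2 of 10 T cell, 4 of 9 myeloid and 2 of 6 NK cell markers. The summed CPM of the GC B cell promoters was 470.5 to 508 in WT, 455 to 493 for C, 465 to 493 for K and 441 to 471 for CK. The corresponding sums were 31.5 to 36.4 in WT and 29.3 to 39.5 for CK for T cell markers, 17.7 to 26.0 and 20.7 to 28.2 for myeloid markers, 5.19 to 6.01 and 7.72 to 9.11 for NK cell markers, and 179 to 194 and 170 to 194 for plasma cell markers. The NK cell sums rest on Eomes, with a WT mean of 4.31 CPM, and Prf1, with 1.35 CPM. They were 6.61 to 7.07 for C and 6.08 to 7.74 for K, so C, K and CK all lay above WT. The part of these marker levels in the results was not tested. The T cell genes with a promoter peak were Cd3d, with a WT mean of 28.2 CPM, and Tcf7, with 6.40 CPM, and the other 8, Cd3e, Cd4 and Trac among them, had none. Y chromosome fragments were present in 9 libraries (2 WT, 2 C, 3 K and 2 CK) and absent in 8 (2 WT, 2 C, 1 K and 3 CK), although the study describes female mice. Results are therefore also given within each of these classes of libraries.

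The selected peaks lay largely in introns and between genes. Their midpoints were intronic at 111 peaks, intergenic at 71 and exonic at 11 in GENCODE M21. The median distance to a TSS was 9047 bp, and the farthest lay 82348 bp from any TSS. Their median length was 1130 bp and their median GC content 45.4%, compared with 1153 bp and 45.6% at the 2985 other distal peaks at or below the CK threshold and 1104 bp and 47.0% at the 19518 eligible peaks above it. Bases marked as repeats in the genome made up a median of 19.04% of a selected peak, 18.6% of the other closing peaks and 16.4% of the peaks above the threshold. The WT level of the selected peaks had a median of 6.90 CPM, with a range from 3.03 to 95.5, below the 8.09 CPM of all eligible peaks. Chromosome 6 held the most, with 18 selected peaks of 1243 eligible ones, and chromosome 8 followed with 15 of 1048.

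The central 300 bases of every eligible peak were searched on both strands for 17 short motifs of B cell transcription factors. The AP-1 motif TGANTCA was present in 33 selected peaks (17.1%), in 12.5% of the other closing peaks and in 10.4% of all eligible peaks. AP-1 factors are leucine zipper dimers such as BATF with JUN family members. The NFAT motif TGGAAA was present in 30.6%, 24.6% and 24.3%, and the octamer ATGCAAAT, bound by OCT1 and OCT2, in 7.77%, 6.70% and 5.09%. The PU.1 motif GAGGAAGT was less frequent, with 3.63% (7 selected peaks), 7.07% and 6.70%. So was the EBF motif CCCNNGGG, with 4.66% (9 selected peaks), 7.44% and 9.49%. The E-box CAGCTG was present in 12.95%, 17.1% and 18.4%, and the E-box CACCTG in 21.8%, 25.5% and 25.1%. The CTCF motif was found in 3 selected peaks (1.55%), in 0.771% of the other closing peaks and in 4.99% of all eligible peaks. Shares of the ETS motif GGAAGT (26.9%, 30.6% and 28.1%), the RUNX motif TGTGGT (26.9%, 28.7% and 25.4%), the IRF motif GAAANNGAA (10.4%, 10.4% and 11.9%) and the composite ETS-IRF motif GGAANNGAA (24 of 193, 367 of 2985 and 2723 of 22696 peaks) lay close together in the 3 sets. These motifs overlap each other, since PU.1 contains the ETS letters, and a match is a description of the sequence and not of a bound site. None of the 17 motifs was present in 18 selected peaks.

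At 8 selected peaks every CK mouse lay below every WT, C and K mouse. The central 200 bases of these peaks are shown because the CK mice did not overlap there with the mice of any other genotype. The sequences are from the GRCm38 forward strand, with each peak named by its nearest protein-coding gene, and capitals mark matches to the ETS, ETS-IRF, IRF, RUNX, AP-1, NFAT, octamer, E-box (CAGCTG and CACCTG) or STAT (TTCNNNGAA) motifs on either strand.
Xrn1, chr9:96035547-96035746: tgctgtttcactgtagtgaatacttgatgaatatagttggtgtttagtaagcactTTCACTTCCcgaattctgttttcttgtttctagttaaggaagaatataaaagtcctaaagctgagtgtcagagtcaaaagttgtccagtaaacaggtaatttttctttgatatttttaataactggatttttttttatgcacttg
Wasf2, chr4:133182584-133182783: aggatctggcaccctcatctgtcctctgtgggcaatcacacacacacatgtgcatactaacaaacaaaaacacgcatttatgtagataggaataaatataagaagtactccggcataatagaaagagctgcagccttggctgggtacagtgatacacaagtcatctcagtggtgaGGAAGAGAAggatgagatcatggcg
Neu3, chr7:99842577-99842776: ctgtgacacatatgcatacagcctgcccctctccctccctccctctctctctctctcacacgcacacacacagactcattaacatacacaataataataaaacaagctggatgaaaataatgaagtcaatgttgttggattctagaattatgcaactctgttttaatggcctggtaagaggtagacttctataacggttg
Bhlha15, chr5:144165590-144165789: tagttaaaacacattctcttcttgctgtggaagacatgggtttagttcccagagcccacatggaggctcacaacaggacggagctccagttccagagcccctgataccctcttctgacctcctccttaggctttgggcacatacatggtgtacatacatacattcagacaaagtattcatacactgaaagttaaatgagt
Cited2, chr10:17540057-17540256: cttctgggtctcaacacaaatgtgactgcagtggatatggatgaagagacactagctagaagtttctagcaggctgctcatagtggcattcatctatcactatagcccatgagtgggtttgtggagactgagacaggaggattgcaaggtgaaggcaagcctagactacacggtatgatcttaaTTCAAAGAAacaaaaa
Snx13, chr12:35041954-35042153: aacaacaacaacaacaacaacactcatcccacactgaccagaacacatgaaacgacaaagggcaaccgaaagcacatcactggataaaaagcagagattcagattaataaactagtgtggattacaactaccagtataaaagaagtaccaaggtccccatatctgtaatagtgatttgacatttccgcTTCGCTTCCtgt
Gtf3c1, chr7:125680162-125680361: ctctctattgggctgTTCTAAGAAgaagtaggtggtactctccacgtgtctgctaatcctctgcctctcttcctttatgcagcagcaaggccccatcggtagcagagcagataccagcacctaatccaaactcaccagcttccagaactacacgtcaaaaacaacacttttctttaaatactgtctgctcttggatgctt
Ssh2, chr11:77385975-77386174: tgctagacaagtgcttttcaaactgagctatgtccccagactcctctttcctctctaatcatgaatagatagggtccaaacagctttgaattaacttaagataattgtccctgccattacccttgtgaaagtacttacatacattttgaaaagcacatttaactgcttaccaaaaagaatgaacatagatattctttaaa
The windows at Xrn1, Wasf2 and Snx13 each held an ETS-IRF match, which at Xrn1 overlapped an ETS match, those at Cited2 and Gtf3c1 a STAT match, and those at Neu3, Bhlha15 and Ssh2 none of the capitalized motifs.

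The central 200 bases of 3 selected peaks nearest to genes with known roles in B cells are shown in the same way, chosen as those with the lowest CK ratio.
Ccr7, chr11:99132358-99132557: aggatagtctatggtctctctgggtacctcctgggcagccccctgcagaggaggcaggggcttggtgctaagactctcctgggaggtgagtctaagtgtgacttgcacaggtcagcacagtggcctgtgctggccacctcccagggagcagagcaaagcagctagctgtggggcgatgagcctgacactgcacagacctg
Runx1, chr16:93020223-93020422: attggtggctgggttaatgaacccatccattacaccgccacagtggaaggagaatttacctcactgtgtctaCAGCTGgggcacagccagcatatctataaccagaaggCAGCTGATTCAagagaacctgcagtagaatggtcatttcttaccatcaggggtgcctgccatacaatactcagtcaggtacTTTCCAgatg
Ccr6, chr17:8210479-8210678: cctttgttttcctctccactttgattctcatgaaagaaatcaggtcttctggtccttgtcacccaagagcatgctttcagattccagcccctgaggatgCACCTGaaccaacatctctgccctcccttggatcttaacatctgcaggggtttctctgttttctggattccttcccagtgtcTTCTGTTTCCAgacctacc
The Runx1 window held a pair of E-box matches, one of which ran into an AP-1 match, and an NFAT match, and the Ccr6 window an IRF match, an E-box match and an NFAT match. The Ccr7 window held none.

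The ratios that chose the peaks were not centered on WT in the single mutants. The median CK ratio of the selected peaks was -0.35, with a range from -0.70 to -0.30, which is a mean CPM of 0.786 of WT. The median ratio was -0.05 for C and -0.10 for K. The C ratio was below 0 at 144 of 193 peaks, the K ratio at 180, and both at 134. The K ratio lay between -0.15 and -0.1 at 104 peaks, while both C and K lay within 0.05 of 0 at 14. Added together, the C and K ratios had a median of -0.15 and reached a median of 42.7% of the CK ratio. All eligible peaks had median ratios of 0.02 for C, -0.05 for K and -0.06 for CK. These values are a description, because they were used to choose the peaks.

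**Figure D1:**
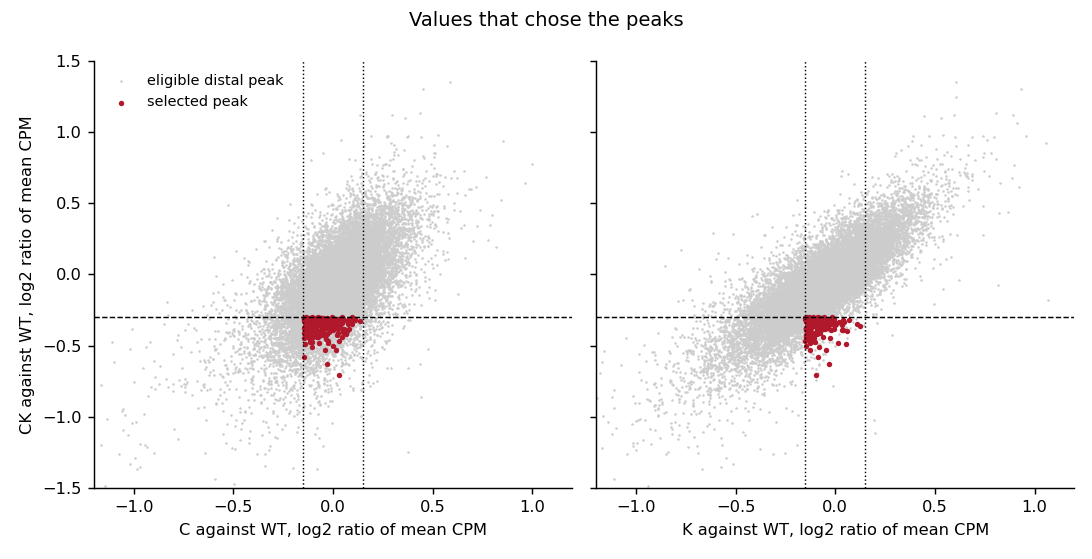
Log2 ratio of mean CPM to WT at 22696 eligible distal peaks, with CK on the vertical axis and C (left) or K (right) on the horizontal axis; each point is 1 peak, red points are the 193 selected peaks, the dashed line is the CK threshold of -0.3 and the dotted lines the band of -0.15 to 0.15. The selected peaks crowd against the CK threshold and the lower side of the K band, with a median of -0.10 for K, and 27 eligible peaks, none of them selected, lie outside the axes.

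Peaks on either side of the thresholds had near-identical values. The selected peaks nearest Ccdc167 and Cpb2 had CK ratios of -0.3005 each, and the peaks nearest Tmem63a and Macf1, which met every other criterion, had -0.2998 and -0.2991. On the lower side of the K band, selected peaks nearest Ppp2r5e and Srgn had K ratios of -0.1498 each, against -0.1501 and -0.1507 for excluded peaks nearest Dtx2 and Atg7. On the lower side of the C band, selected peaks nearest Elovl5 and Foxj2 had -0.1477 and -0.1473, against -0.1505 and -0.1506 for excluded peaks nearest Fgd6 and Henmt1. The upper sides were thinly filled. The highest C ratios among the selected peaks were 0.14 (a Cxcr4 peak) and 0.11 (Ssbp3), with 0.16 and 0.16 for excluded peaks nearest Ncbp3 and Ccdc12, and the highest K ratios were 0.12 (Parn) and 0.11 (Macf1), with the only excluded peak, nearest Rock2, at 0.28. At the WT minimum, selected peaks nearest Synrg and Foxp1 had 3.03 CPM each and excluded ones nearest Msra and Snhg11 2.99 and 2.97. At the distance limit, selected peaks nearest Tango2 and Slfn1 lay 1134 and 1171 bp from a TSS and excluded ones nearest Babam2 and Nucb2 991 and 866 bp.

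The precision of single peaks was low relative to the band. The median selected peak had 134 fragments per WT library, and the median standard error (SE) of its edgeR log2 fold change against WT was 0.14 for C, 0.14 for K and 0.13 for CK. At 157 selected peaks the K fold change minus 2 SE was at or below -0.3, as was the C fold change minus 2 SE at 134, so a change as large as the CK threshold lay inside these ranges. The median coefficient of variation over mice was 12.6% in WT and 14.9% in CK at the selected peaks, compared with 9.80% and 10.9% at all eligible peaks.

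By edgeR (quasi-likelihood F test, p-values adjusted by Benjamini-Hochberg across the 65483 peaks, called under 0.01), 14 selected peaks (7.25%) were called lower in CK than in WT, beside 3.3% of all peaks. The share was 6.88% of the eligible peaks that were not selected and 42.95% of the other closing peaks. None was called lower in CK than in K, beside 0.00458% of all peaks, and none lower in CK than in C, beside 0.77%. None was called below what the C and K changes added up to, beside 0.00458% of all peaks. The numbers with an unadjusted p under 0.05 were 179 for CK below WT, 105 for CK below K, 127 for CK below C and 7 for CK below the sum. DESeq2 called 31 of the selected peaks lower in CK than in WT (beside 4.11% of the peaks it tested), 1 lower than in K (0.0421%), 6 lower than in C (1.66%) and 0 below the sum (0.00764%). All of these comparisons share mice with the rule, so the counts are a description. The same holds for every p-value given below for a single selected peak. The lowest adjusted p for CK against K among the selected peaks was 0.0894. Without CK replicate 5, 39 were called lower in CK than in WT and 1 lower than in K, and without WT replicate 4, 4 were called lower in CK than in WT. Without CK replicates 1 or 2 the count lower than in WT was 7 or 8, without WT replicate 3 it was 5 and without WT replicate 1 it was 22.

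Values of single mice overlapped at most selected peaks. Every CK mouse lay below every WT mouse at 56 of 193 peaks (29.0%), beside 5.79% of all peaks and 50.65% of the other closing peaks. Every CK mouse lay below every WT, C and K mouse at 8, beside 0.119% of all peaks and 0.938% of the other closing peaks. The CK mice lay below every C mouse at 35 peaks (18.1%), beside 4.83% of all peaks and 32.4% of the other closing peaks, and below every K mouse at 19 (9.85%), beside 0.695% and 2.04%. The median log2 ratio over the selected peaks was -0.45, -0.51, -0.33, -0.32 and -0.23 for CK mice 1 to 5. It was -0.22, -0.17, -0.06 and 0.01 for K mice 1 to 4, and -0.11, -0.09, 0.01 and -0.01 for C mice 1 to 4. WT mice 1 and 2 were at -0.13 and -0.10 relative to the other WT mice, and WT mice 3 and 4 at 0.07 and 0.12. By this median the CK mice did not overlap with the others, but CK mouse 5 and K mouse 1 were almost level. The same mice chose the peaks, so this separation follows largely from the rule and is a description.

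**Figure D2:**
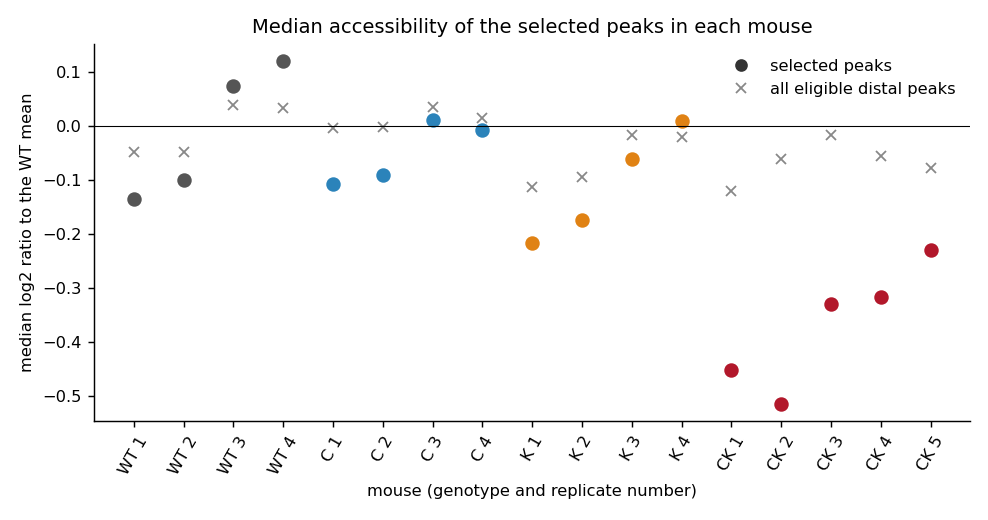
Median log2 ratio of CPM to the WT mean in each of 17 mice, over the 193 selected peaks (filled circles, colored by genotype) and over all 22696 eligible distal peaks (gray crosses); each WT mouse is set against the mean of the other WT mice. The 5 CK mice lie between -0.51 and -0.23, and K mouse 1, at -0.22, lies next to the highest of them. The same mice chose the peaks.

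Medians within the classes of libraries with and without Y chromosome fragments are a description, because the same mice chose the peaks. Set against the WT mice of their own class, the medians over the selected peaks were -0.36 and -0.22 in the CK mice with Y signal and -0.60, -0.43 and -0.32 in those without. They were -0.12, 0.03 and 0.10 in the K mice with Y signal and -0.23 in the only K mouse without, and between -0.08 and -0.00 in the 4 C mice. When the rule was applied to 1 class alone, it selected 224 peaks in the mice without Y signal and 349 in the mice with it, and 16 peaks were in both, which is 7.14% and 4.58% of these lists. Of those 16, 10 were among the 193, including both peaks nearest Neu3 and the peaks nearest Xrn1 and Asxl1. These peaks were named after their values were seen.

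Mice that the rule did not use give a similar measure without the choice of peaks in it. It rests on 1 mouse per genotype in place of genotype means, and C, K and CK share the WT mouse. The rule was applied 20 times with 1 mouse of each genotype left out, and the values of the left-out C, K and CK mice were set against the left-out WT mouse. These 20 sets share mice and are not independent, so the values are given without a test. The rule then selected 106 to 422 peaks, of which 37 to 123 were among the 193. In the mice used, the medians averaged -0.04 for C, -0.09 for K and -0.35 for CK over the 20 sets. In the mice not used, they averaged -0.08 for C, -0.20 for K and -0.24 for CK. Over all eligible peaks the same unused mice averaged 0.02 (C), -0.05 (K) and -0.06 (CK).

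The unused CK mouse was below the unused WT mouse at the median peak in 18 of 20 sets, with a range from -0.52 to 0.08, and the unused K mouse in 17, with a range from -0.43 to 0.05. The median difference between the unused CK and K mice averaged -0.04, with a range from -0.24 to 0.16, and was below 0 in 12 of 20 sets. The difference between the unused CK and C mice averaged -0.16 and was below 0 in 18. In the mice that did not choose the peaks, the median was below that of all eligible peaks in 19 of 20 sets for C, 18 for K and 18 for CK, and the separation of CK from K seen in the mice used was not present at the same size.

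**Figure D3:**
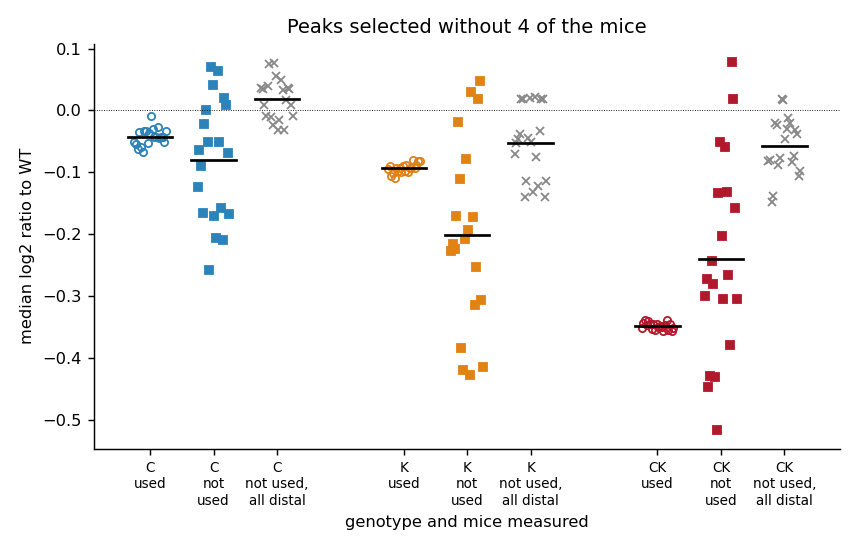
Median log2 ratio to WT in 20 sets of peaks, each selected without 1 mouse of every genotype. Open circles are the mice used for selection, filled squares the left-out mice set against the left-out WT mouse, gray crosses all eligible peaks in those left-out mice, and bars the mean of the 20 sets. The K mean is -0.09 in the mice used and -0.20 in those not used, and the CK mean is -0.35 and -0.24.

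A similar measure was taken between the classes of libraries, with genotype means in place of single mice. At the 224 peaks selected in the 8 mice without Y signal, the genotype means of the 9 other mice had median ratios of 0.02 for C, -0.10 for K and -0.20 for CK, and 32.1% of the peaks reached the CK threshold there, compared with 13.9% of eligible peaks. At the 349 peaks selected in the 9 mice with Y signal, the 8 other mice had medians of -0.05 for C, -0.27 for K and -0.31 for CK, and 53.3% reached the threshold, compared with 18.1%. The 8 mice without Y signal held only 1 K mouse. Their K values, and the K band that chose the 224 peaks, therefore rest on that mouse. The median of CK minus K was -0.11 in the first case and -0.04 in the second, against -0.04 and 0.05 at all eligible peaks.

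The 8 peaks at which the CK mice did not overlap with any other mouse were small changes. They were picked by that separation in the mice that chose the peaks, so their p-values are a description. Some lay little above the WT minimum of 3 CPM, such as those nearest Neu3 (WT mean 3.39 CPM) and Xrn1 (3.42 CPM). The lowest CK ratio was at a peak of 841 bp in an exon of Xrn1 (chr9:96035226-96036066), which encodes a cytoplasmic exoribonuclease that degrades decapped mRNA. It measured 3.87, 2.90, 3.47 and 3.44 CPM in the WT mice, 3.06, 4.26, 3.00 and 3.35 for C, 2.86, 3.13, 3.28 and 3.05 for K, and 2.78, 2.33, 2.60, 2.05 and 2.17 for CK. The highest CK mouse lay just below the lowest K mouse. Its edgeR log2 fold change in CK against WT was -0.52 ± 0.14 (SE, adjusted p = 0.0125) and in CK against K -0.37 ± 0.14 (adjusted p = 0.527).

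The peak in an intron of Wasf2 (chr4:133182298-133183068), which encodes the actin regulator WAVE2, measured 6.17, 6.98, 8.47 and 7.38 CPM in WT, 6.12, 6.36, 7.96 and 6.28 for C, 7.17, 5.86, 6.25 and 7.68 for K, and 5.18, 5.85, 5.45, 4.504 and 4.98 for CK. The highest CK mouse and the lowest K mouse were almost level. It was lower in CK than in WT by edgeR (log2 fold change -0.49 ± 0.12 (SE), adjusted p = 0.00531). A second actin regulator, the cofilin phosphatase Ssh2, had the lowest adjusted p of these 8 peaks at an intronic peak 4471 bp from its TSS (chr11:77385183-77386966). It measured 31.7, 29.1, 30.9 and 34.2 CPM in WT, 30.3, 29.6, 33.0 and 29.2 for C, 27.8, 27.9, 28.2 and 30.0 for K, and 23.9, 26.7, 27.7, 23.9 and 23.6 for CK. Of the K mice, 3 lay between the CK mice and all WT and C mice, and CK against WT gave -0.33 ± 0.06 (SE, edgeR adjusted p = 0.000619).

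The 2 peaks nearest Neu3, a sialidase of the plasma membrane, lay 7.32 kb apart, and both were also selected within each class of libraries. The one inside Spcs2, a signal peptidase subunit gene (chr7:99841995-99843358), measured 3.34, 3.52, 3.09 and 3.61 CPM in WT, 3.06, 3.75, 3.15 and 3.51 for C, 3.90, 3.35, 3.28 and 3.38 for K, and 2.83, 2.01, 2.56, 2.70 and 2.69 for CK. Here K was level with WT (edgeR log2 fold change 0.04 ± 0.13, SE), and CK against K gave -0.45 ± 0.13 with an adjusted p of 0.327. The other (chr7:99832949-99834676) had 22.8 ± 1.26 CPM (SD, n = 4) for WT mice and 18.5 ± 2.40 (SD, n = 5) for CK mice, with an edgeR adjusted p of 0.00603.

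The peak in an intron of Lmtk2, nearest to Bhlha15, which encodes the plasma cell and secretory cell factor MIST1, lay 23939 bp from its TSS (chr5:144165032-144166347). It measured 3.97, 4.14, 5.09 and 4.59 CPM in WT, 4.301, 4.16, 4.86 and 4.90 for C, 4.21, 4.35, 4.45 and 4.77 for K, and 3.55, 3.36, 3.71, 2.70 and 3.95 for CK. WT, C and K were level, with means of 4.45, 4.55 and 4.44 CPM against 3.45 for CK (edgeR adjusted p = 0.0342 against WT). The intergenic peak 181736 bp from Cited2 (chr10:17538830-17541482) measured 6.11, 6.36, 6.52 and 6.72 CPM in WT, 5.78, 6.82, 5.53 and 7.03 for C, 6.23, 5.92, 6.46 and 7.03 for K, and 4.75, 4.23, 5.35, 5.26 and 5.49 for CK. CITED2 is a cofactor that binds CREBBP and p300. The genotype means were 6.43, 6.29 and 6.41 CPM in WT, C and K and 5.02 for CK, and the adjusted p for CK against WT was 0.0207 in edgeR.

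At the last pair, the intergenic peak 4943 bp from Snx13 (chr12:35041864-35042243), a sorting nexin gene, had 8.24 ± 0.454 CPM (SD, n = 4) for WT mice, 8.22 ± 1.26 (SD, n = 4) for C mice, 7.43 ± 0.542 (SD, n = 4) for K mice and 6.54 ± 0.304 (SD, n = 5) for CK mice. The highest CK mouse, at 6.94, and the lowest K mouse, at 6.96, were almost level. The intronic peak of Gtf3c1 (chr7:125679825-125680698), which encodes a subunit of the RNA polymerase III factor TFIIIC, measured 17.45, 17.75, 18.9 and 21.2 CPM in WT, 17.8, 20.7, 17.98 and 19.5 for C, 16.7 to 18.3 for K, and 14.3, 12.7, 15.9, 15.6 and 16.5 for CK. The lowest K mouse was the nearest to the CK mice. It was lower in CK than in WT (edgeR adjusted p = 0.00587).

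**Figure D4:**
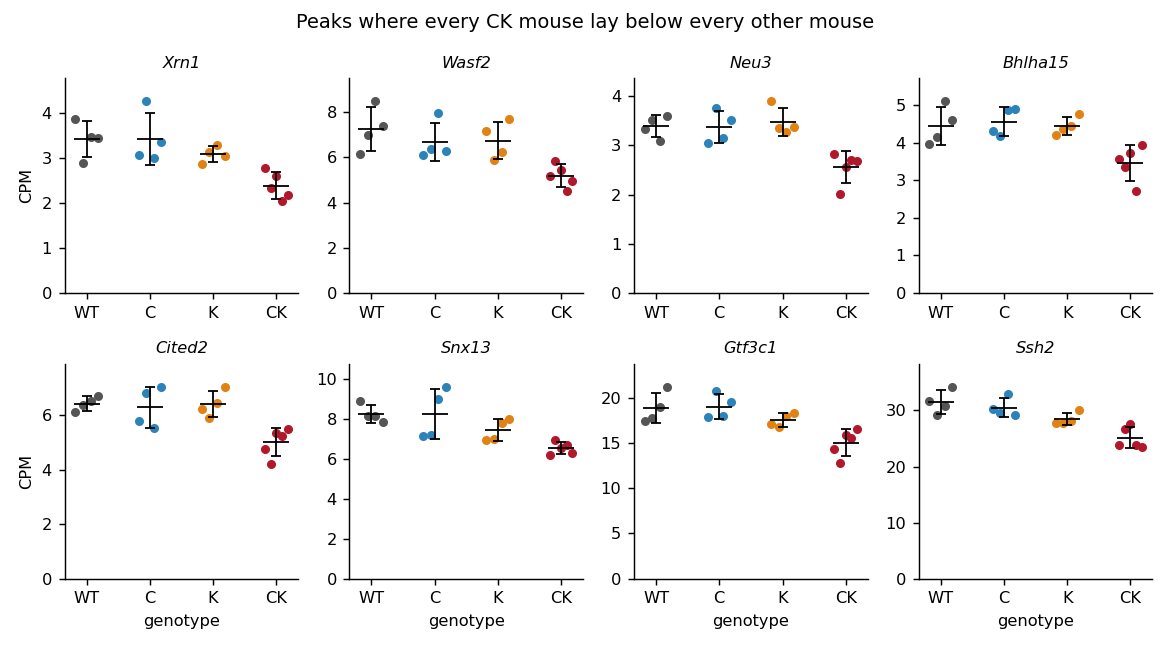
CPM in each mouse at the 8 selected peaks where every CK mouse lay below all WT, C and K mice, each panel named by the nearest protein-coding gene; points are mice, horizontal bars the mean and error bars 1 SD (n = 4 WT, 4 C, 4 K and 5 CK). At Xrn1 the CK mice lie between 2.05 and 2.78 CPM and the other 12 mice between 2.86 and 4.26.

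Of the 210 genes in 12 lists of B cell functions, 7 were nearest to a selected peak, with 9 peaks in all (4.66% of the selected peaks). The corresponding share was 4.72% of the other closing peaks and 5.66% of all eligible peaks. The list of confinement and chemotaxis genes held 4 of the 9 (Cxcr4 with 3 and Ccr7 with 1), that of B-lineage and GC transcription factors 3 (Runx1, Foxp1 and Foxo1), that of memory B cell genes 1 (Ccr6) and that of the NF-kB pathway 1 (Tnfaip3). The lists for apoptosis and survival, B cell receptor signalling, chromatin regulators, cytokine receptors, MHC class II presentation, plasma cell fate, T cell help and Toll-like receptors held none of the selected peaks, which were 0.850% of eligible peaks, with 23 eligible peaks nearest to the MHC class II presentation genes and 40 to 169 to those of each of the other lists without one. The lists do not hold every gene of these functions. Selected peaks also lay nearest to Bhlha15, Tent5c and Slc15a4, whose roles are given in other paragraphs, and to Cd70 and Btla, and none of these genes is listed. The nearest gene is a statement of position and does not show which gene a peak acts on.

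Chemokine receptors account for 5 of these 9 peaks. CCR7 guides lymphocytes along CCL19 and CCL21, and the intergenic peak 22163 bp from its TSS (chr11:99132000-99132914) measured 14.9, 12.9, 16.6 and 14.7 CPM in WT, 12.3, 11.9, 16.02 and 15.8 for C, 12.98, 10.9, 13.8 and 15.6 for K, and 9.55, 9.32, 12.1, 10.9 and 12.5 for CK. The CK mice lay below every WT mouse but overlapped with C and K. It was called lower in CK than in WT, in the mice that chose it (edgeR log2 fold change -0.45 ± 0.11 (SE), adjusted p = 0.00753). CCR6, the CCL20 receptor of memory B cell precursors, had an intergenic peak 24381 bp away (chr17:8209494-8211662) that measured 16.2, 14.02, 13.8 and 11.97 CPM in WT, 10.99, 13.1, 13.7 and 13.5 for C, 10.85, 9.43, 14.6 and 15.6 for K, and 11.1, 9.59, 11.9, 11.1 and 9.55 for CK. The CK mice lay below every WT mouse, while K mouse 2 lay below all CK mice and K mice 3 and 4 above them. Its edgeR adjusted p for CK against WT was 0.0243.

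CXCR4 holds GC B cells in the dark zone along CXCL12, and its locus had the most selected peaks, 3 of the 31 eligible distal peaks nearest to it. The peak 4495 bp from the TSS (chr1:128587075-128587795) measured 22.8, 23.7, 30.0 and 34.7 CPM in WT, 24.5, 22.7, 25.4 and 30.5 for C, 24.6, 22.9, 24.4 and 28.6 for K, and 21.8, 18.2, 17.6, 23.3 and 25.4 for CK. WT mice 1 and 2 lay within the CK range, and the CK values overlapped with every other genotype. The peak 21.6 kb from the TSS (chr1:128613917-128615687) measured 45.5, 32.3, 42.9 and 43.7 CPM in WT, 45.2, 44.0, 33.3 and 38.5 for C, 43.4, 31.0, 49.4 and 45.3 for K, and 31.4, 31.2, 28.3, 41.1 and 30.8 for CK. Here 4 CK mice lay below all WT mice, and CK mouse 4 lay among the WT mice. The third, at 109 kb (chr1:128701361-128701770), had 9.59 ± 0.760 CPM (SD, n = 4) for WT mice, 10.6 ± 1.53 (SD, n = 4) for C mice, 9.03 ± 1.24 (SD, n = 4) for K mice and 7.64 ± 1.72 (SD, n = 5) for CK mice.

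None of the 31 peaks passed the adjusted p of 0.01 for CK against WT, and the lowest was 0.012. The CK ratio was below 0 at 26 of them, with a median of -0.16, and the median was -0.13 for K and 0.06 for C. Besides the 3 selected peaks, 3 others reached the CK threshold, at K ratios of -0.16, -0.36 and -0.22. More open peaks of the locus were not selected, such as that 6264 bp from the TSS, with 78.7 ± 8.64 CPM (SD, n = 4) for WT mice and 68.9 ± 4.66 (SD, n = 5) for CK mice.

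**Figure D5:**
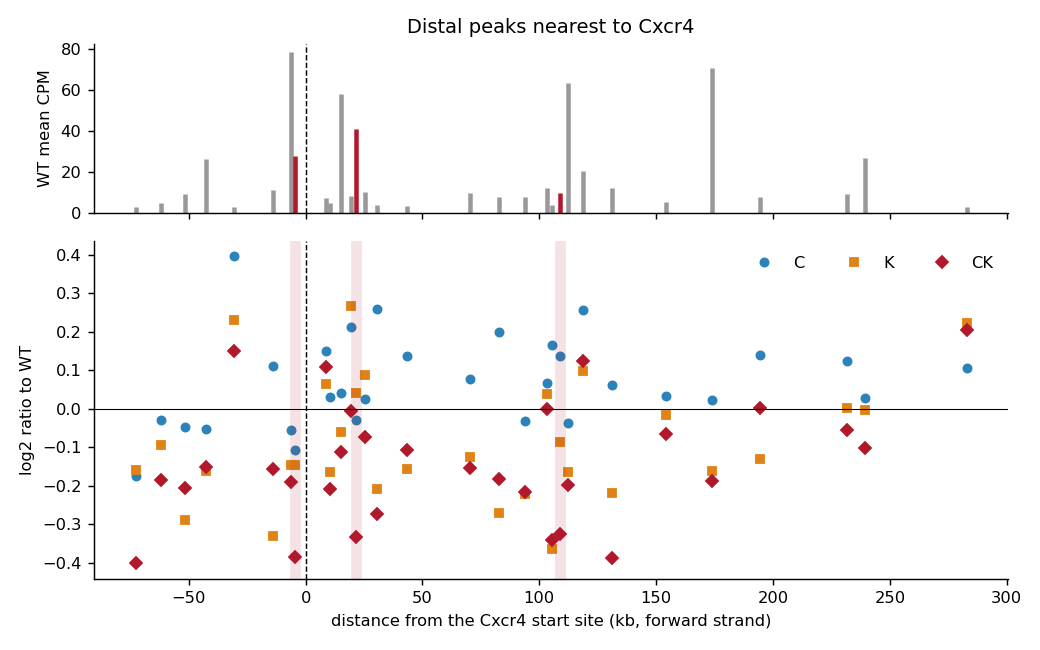
Distal peaks nearest to Cxcr4 by distance from its TSS in kb along the forward strand, with the WT mean CPM above (red for the 3 selected peaks) and the log2 ratio to WT in C (circles), K (squares) and CK (diamonds) below; shaded bars mark the selected peaks and the dashed line the TSS. At the selected peaks CK ratios are -0.38, -0.33 and -0.33, and CK lies below 0 at 26 of the 31 peaks.

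Transcription factor loci gave peaks with wide spreads between mice. The Runx1 peak, 193683 bp from its TSS (chr16:93019832-93020813), had 6.35 ± 0.825 CPM (SD, n = 4) for WT mice, 5.76 ± 1.70 (SD, n = 4) for C mice, 5.95 ± 0.703 (SD, n = 4) for K mice and 4.72 ± 1.11 (SD, n = 5) for CK mice, with an edgeR adjusted p of 0.0804 for CK against WT. FOXP1 is a transcription factor that is lowered as B cells enter the GC, and the intronic Foxp1 peak (chr6:98971768-98972863) had 3.03 ± 0.454 CPM (SD, n = 4) for WT mice and 2.31 ± 0.429 (SD, n = 5) for CK mice (adjusted p = 0.0818). FOXO1 drives the dark zone program, and the peak 229856 bp from Foxo1 (chr3:52498192-52500272) had 6.90 ± 0.680 CPM (SD, n = 4) for WT mice and 5.50 ± 0.493 (SD, n = 5) for CK mice (adjusted p = 0.154). At Tnfaip3, which encodes the NF-kB inhibitor A20, the peak 20496 bp from the TSS (chr10:18987238-18988349) had 22.7 ± 3.86 CPM (SD, n = 4) for WT mice, 22.1 ± 1.38 (SD, n = 4) for C mice, 21.1 ± 1.91 (SD, n = 4) for K mice and 18.2 ± 3.04 (SD, n = 5) for CK mice (adjusted p = 0.0349). These 4 peaks did not pass the threshold.

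The most open selected peak, 4285 bp long, lay between Bcl6 and Lpp in an intron of the gene model AC169509.1, 53219 bp from the Lpp TSS and 347152 bp from that of Bcl6, the repressor that defines the GC fate (chr16:24336004-24340288). It measured 85.3, 92.4, 94.8 and 109 CPM in WT, 85.8, 80.8, 84.4 and 94.1 for C, 83.5, 81.0, 87.7 and 94.7 for K, and 77.3, 69.8, 69.3, 82.5 and 87.4 for CK. The means fell from 95.5 in WT over 86.3 for C and 86.7 for K to 77.3 for CK, and both single mutants were near the lower side of the band, at -0.15 and -0.14. It was called lower in CK than in WT, in the mice that chose it (edgeR log2 fold change -0.31 ± 0.07 (SE), adjusted p = 0.00377). The next most open were an intronic Aacs peak with 45.9 ± 4.32 CPM (SD, n = 4) for WT mice and 37.2 ± 5.74 (SD, n = 5) for CK mice, the Cxcr4 peak at 21.6 kb, a peak in an intron of Appbp2, nearest to 1700125H20Rik, with 39.3 ± 8.17 and 31.7 ± 5.61, and an intronic peak of Srgn, which encodes the granule proteoglycan serglycin, with 38.5 ± 6.59 and 31.0 ± 3.02. Their edgeR adjusted p-values for CK against WT were 0.0185 (Aacs), 0.047 (Cxcr4), 0.0529 (Appbp2) and 0.0276 (Srgn), so of the 5 most open peaks only that near Lpp passed the threshold.

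The 193 peaks had 181 different nearest protein-coding genes, and 11 genes had more than 1. Besides Cxcr4 and Neu3 these were Cited2, Etv6, Jdp2, Nbas, Pcca, Slc15a4, Stt3b, Tent5c and Zfp36l2, with 2 each. JDP2 is a repressor of the AP-1 family, and the intronic Jdp2 peaks, 2.72 kb apart, had CK ratios of -0.42 and -0.43 and K ratios of -0.12 each. TENT5C is a poly(A) polymerase expressed in plasma cells, and its intronic peaks, 1.58 kb apart, had CK ratios of -0.41 and -0.38. SLC15A4 is a transporter needed for endosomal Toll-like receptor signalling, and its peaks, 3.26 kb apart, had CK ratios of -0.32 each. At Etv6, an ETS repressor gene, the selected peaks were the only 2 of 24 eligible peaks at or below the CK threshold, and the median CK ratio of the 24 was 0.17. At Zfp36l2, which encodes an mRNA decay factor, they were the only 2 of 12, whereas at Pcca 5 of 9 reached the threshold and at Cited2 7 of 19. Another selected peak within 100 kb was present for 25 of the 193, and within 10 kb for 10.

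Eligible peaks that were not selected but lay within 50 kb of a selected peak numbered 759. Of these, 70 (9.22%) were called lower in CK than in WT by edgeR, beside 6.88% of all eligible peaks that were not selected, and 5 (0.659%) were called higher, beside 1.99%. Their median ratios were 0.00 for C, -0.07 for K and -0.11 for CK, against 0.02, -0.05 and -0.06 at eligible peaks farther away. Within 10 kb, 20 of 199 neighbors (10.1%) were called lower and none higher, with a median CK ratio of -0.12. The neighbors shared the lower CK level of the selected peaks only in part. Without WT replicate 3 or 4 the count of 70 was 44 or 28.

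Promoters of the nearest genes were near WT as a group, with a median CK ratio below that of all promoter peaks. Of 310 peaks within 1 kb of a TSS of these genes, 8 (2.58%) were called lower in CK than in WT by edgeR, beside 1.48% of all promoter peaks, and 8 (2.58%) were called higher, beside 8.61%. Their median ratios were 0.00 for C, 0.03 for K and 0.02 for CK, against 0.02, 0.06 and 0.06 over 16179 promoter peaks. Among those called lower were promoter peaks of Klhl6, a ubiquitin ligase adaptor of GC B cells (37.95 ± 4.96 CPM (SD, n = 4) for WT mice and 30.3 ± 2.0 (SD, n = 5) for CK mice, adjusted p = 0.00212), and of Cd2, an adhesion receptor (114 ± 8.07 and 94.7 ± 4.72, adjusted p = 0.0071). Among those called higher were 2 promoter peaks of Foxp1 (38.7 ± 1.71 and 48.3 ± 2.82, and 57.5 ± 2.30 and 69.2 ± 2.65, adjusted p = 0.000397 and 0.000638) and 1 of Etv6 (50.3 ± 3.21 and 60.6 ± 1.79, adjusted p = 0.00216), so at both genes a promoter peak was higher in CK while a distal selected peak had a lower mean. Iqsec1, which encodes an exchange factor for ARF6, had 1 promoter peak called higher (54.5 ± 3.46 and 71.5 ± 5.86) and another called lower (43.4 ± 3.04 and 35.3 ± 2.23). Both Foxp1 peaks were also called higher in K than in WT (edgeR log2 fold change 0.29 and 0.24, adjusted p = 0.00383 and 0.00558), beside 0.31 and 0.26 in CK. The lowered Iqsec1 peak was also called lower in K (-0.32, adjusted p = 0.00619), beside -0.31 in CK. The Etv6, Klhl6, Cd2 and other Iqsec1 peaks were not called in K. These promoter genes were chosen for mention after their values were seen. Without WT replicate 3 or 4 the 16 calls were 10 or 5.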

How the data were processed

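The authors deposited raw counts of ATAC-seq fragments per consensus peak, made with the nf-core ATAC-seq pipeline on mm10 and featureCounts, which let a fragment count in more than 1 peak, without normalization. The table has columns for 17 libraries, and 7 further samples of sorted centroblasts and centrocytes were not analysed here. Genes were from GENCODE M21 and sequences from RefSeq GRCm38, the same build.

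Selection used CPM by column totals and the thresholds given in the results. The peaks, gene lists, motifs and rules for naming were chosen with earlier results of these data known. Named peaks were those where all CK mice lay below all others, those nearest a listed gene, the 5 with the highest WT mean, and those at each threshold. Peaks with fewer than 10 summed counts were to be removed, and there were 0. Counts were fitted with edgeR 4.0.16 (TMM, quasi-likelihood F test, 1 coefficient per genotype, all 17 libraries) in R 4.3.3, with DESeq2 1.42.0 as an alternative. The fits and the rule were tested on simulated data. There was 1 library per mouse, with 17483706 to 21857738 counted fragments, and no 2 libraries of a genotype agreed within sampling noise. Other alternatives were other scalings, filters, thresholds, distances, GC content bins, a Y chromosome covariate, the replicate number as a block and leaving out each mouse. Peaks selected without 1 mouse of each genotype, and within mice with Y signal, were added after seeing the data. Some marker genes and sequences are not reported here.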

Additional observations from a re-analysis of the deposited data

Results flagged for a closer look

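In 88 groups of mice (the 21 named peaks and the median over the selected peaks, in each genotype), the highest or lowest mouse was set against the range of its group by Dixon's ratio, and 5 groups (5.68%) passed the 95% critical value. Chance gives about 1 in 20 such groups. The clearest for the results was CK mouse 4 at the Cxcr4 peak 21.6 kb from the TSS, with 41.1 CPM where the other CK mice had 28.3 to 31.4. At the Wasf2 peak C mouse 3 had 7.96 CPM and the other C mice 6.12 to 6.36, and at the Foxp1 peak the same mouse had 3.82 CPM and the others 2.77 to 2.93. At the Neu3 peak inside Spcs2 K mouse 1 had 3.90 CPM and the others 3.28 to 3.38. At the Ssh2 peak K mouse 4 had 30.0 CPM and the others 27.8 to 28.2. The median over all 193 selected peaks held no such mouse in any genotype.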

How the results depend on the processing

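The number of selected peaks, 193, was 315 with medians over mice, 421 and 43 with CK thresholds of -0.25 and -0.4, 61 and 432 with bands of 0.1 and 0.2, 349 in mice with Y signal only, and between 144 and 326 leaving out 1 mouse, with 319 without K replicate 1 and 326 without CK replicate 5. Between 84 and 178 of the 193 were kept without 1 mouse, 86 after centring within GC content bins and 92 with medians. Only 30 were kept in mice without Y signal and 48 in mice with it. Other scalings, distances and levels gave 129 to 265. Of the selected peaks, 14 were called lower in CK than in WT, against 100 at an adjusted p under 0.05, 31 in DESeq2, 9 with GC content offsets, 31 with the Y signal as a covariate, and 4 to 39 leaving out 1 mouse. The count lower in CK than in C was 19 at an adjusted p under 0.05, 6 in DESeq2, 1 with total counts, 3 with the Y signal, and 0 to 2 leaving out 1 mouse. The count lower in CK than in K was 1 in DESeq2 and 0 to 1 leaving out 1 mouse, and the count below the sum was 0 under every alternative run. The 16 promoter peaks called were 50 at an adjusted p under 0.05, 42 among 705 peaks of all genes within 100 kb, and 5 to 22 leaving out 1 mouse. The 70 neighbors called were 147 at an adjusted p under 0.05, 20 within 10 kb and 28 to 78 leaving out 1 mouse. The causes of these shifts were not tested. At the 21 named peaks the CK fold change kept its direction in all 525 alternative fits and its side of the threshold in 489. These fits reuse mice that chose the peaks at a CK ratio of -0.3 or less. The kept direction therefore follows largely from the rule.

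No source says that the replicate numbers pair the mice, and the deviations of same-numbered mice did not all correlate above 0.1: 12 of 24 pairs did, which were 6 of 6 pairs of number 1 and 2 of 6 of each other number, and 10 of 17 mice correlated best with their own number. With the replicate number as a block, 72 selected peaks were called lower in CK than in WT (beside 5.25% of all peaks), 1 lower than in K (0.0275%), 26 lower than in C (1.88%) and 0 below the sum (0.00611%), with 28 promoter peaks and 110 neighbors. At the median of 134 fragments per WT library, the SE of a selected peak's fold change was 0.14 for C and K, beside a band from -0.15 to 0.15.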
